A study of Mus musculus with 3 samples.

Results

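The 10 genes described here encode cytokines of the interleukin-6 (IL-6) family, the receptor chains that bind them, the transcription factor STAT3 and the feedback inhibitor SOCS3. They were taken by symbol from a list (Il6, Lif, Il11, Clcf1, Il6ra, Il6st, Lifr, Osmr, Stat3 and Socs3). That list was drawn up with earlier results of these data known. All 10 genes were found among the 24225 mouse genes of the expression table, where 17 of 34535 RefSeq isoforms belong to them. The study followed granulosa cells, the somatic cells around the oocyte in the ovarian follicle, through the hours in which a gonadotropin triggers ovulation and luteinization. All 3 groups were wild type C57BL/6 female mice at postnatal day 21 to 28 that had been given 4 IU of equine chorionic gonadotropin (eCG) to make follicles grow. The 0 h group was taken without further treatment, and the 4 h and 12 h groups at those times after 5 IU of human chorionic gonadotropin (hCG), a stand-in for the luteinizing hormone surge. Cells were freed by puncturing follicles, RNA came from 3 mice per time per the labels, and each time has 1 library; the sources used here do not say whether that library pools the 3 mice. Cells obtained by puncture can carry other cells of the ovary with them.

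Nearly all IL-6 family cytokines signal through receptor complexes that contain the shared chain gp130, the product of Il6st. IL-6 and IL-11 first bind a specific alpha receptor, while leukemia inhibitory factor (LIF) and oncostatin M bring gp130 together with the LIF receptor or the oncostatin M receptor. Cardiotrophin-like cytokine uses the alpha receptor encoded by Cntfr together with gp130 and the LIF receptor. Janus kinases bound to these chains then phosphorylate STAT3, which enters the nucleus and switches on genes that include Socs3, whose product binds gp130 and the kinases and shuts the signal down. In the ovary, IL-6 is known as a product of granulosa and cumulus cells around ovulation.

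With 1 library per time no test was possible. Each difference below is between 2 libraries, without a replicate check, and the bounds printed in brackets beside levels are the deposited ones, summed over isoforms, which describe the estimate within a library and not the spread between mice. Levels are FPKM, fragments per kilobase of transcript and corrected for sequencing depth, so that levels of different genes can be compared per length. Differences are log2 folds of FPKM + 1, the later time over the earlier one, which understates the change of low genes. A gene was called higher or lower where the change was at least 2-fold, which is a log2 fold of 1 in either direction. In addition, 1 of the 2 libraries had to reach at least 1 FPKM. This is a rule of size.

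The libraries held about 13400000, 11900000 and 11600000 fragments at 0, 4 and 12 h, and the deposited FPKM summed to 501561, 621365 and 472904. All 11 granulosa markers were above 1 FPKM at every time, with summed levels of 13990, 12170 and 7966 FPKM; 1 was called higher and 5 lower at 4 h than at 0 h. Rescaling each library to the mean of these sums moved the median log2 fold of all genes to -0.29 for 4 h against 0 h and to 0.37 for 12 h against 4 h, where the deposited scale gives -0.01 and 0.01. The share of called genes that were higher moved with it, to 36.7% at 4 h over 0 h, beside 59.3% on the deposited scale, and to 70.7% at 12 h over 4 h, beside 38%. With short RNAs left out of the sums these shares were 42.6% and 61.9%. Median-of-ratios scaling stayed near the deposited scale, with shares of 58.4% and 41.4% and medians of -0.02 and 0.04. Differences below are on the deposited scale.

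**Figure D1:**
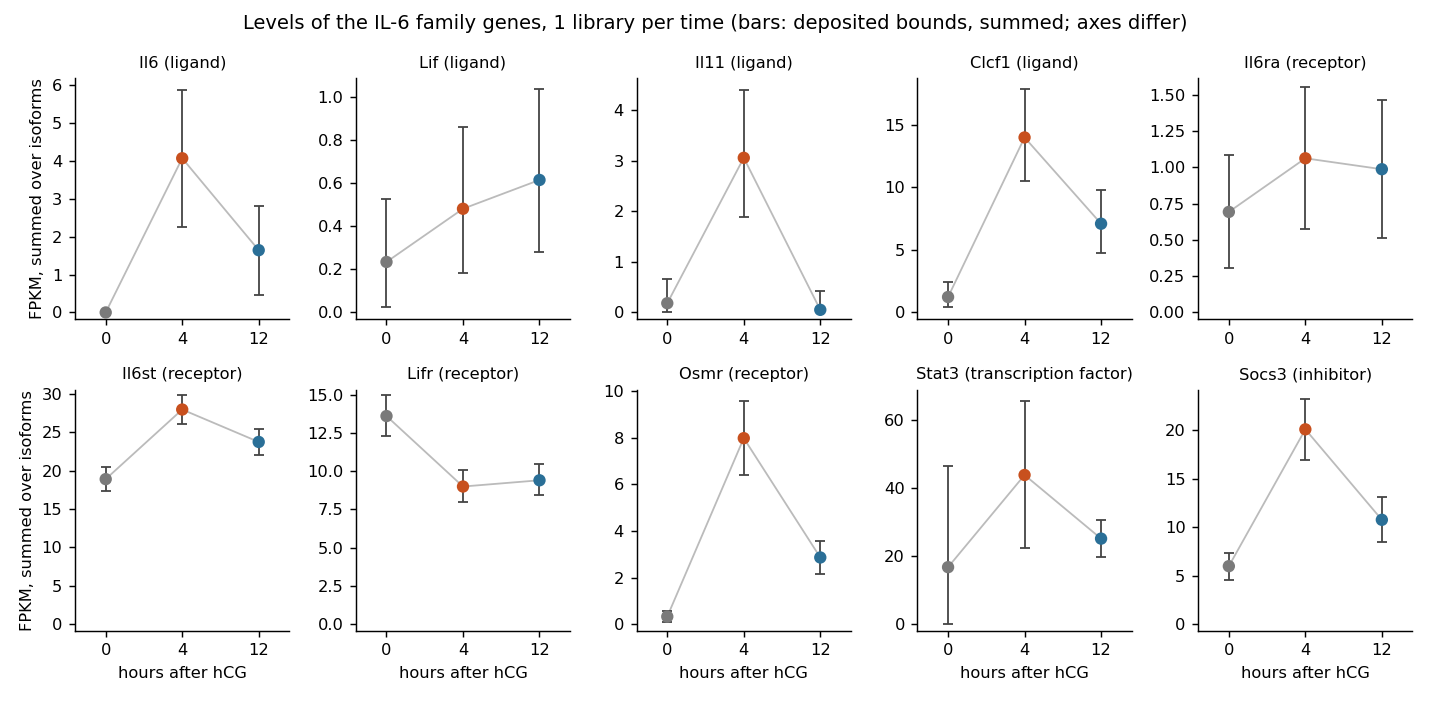
FPKM of each gene (y axis, summed over its isoforms, own scale per panel) at 0, 4 and 12 h after hCG (x axis), 1 library per time; the bars run between the summed deposited bounds. Il6, Il11, Clcf1, Il6ra, Il6st, Osmr, Stat3 and Socs3 have their highest point at 4 h, Lif at 12 h, and Lifr at 0 h, at 13.6 FPKM.

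The transcript of the ligand IL-6 was measured at 4 h and 12 h after hCG, and listed at 0 without it. Il6 (chr5:30013114-30019975, plus strand, GRCm38.p6) had 0 FPKM at 0 h, 4.07 FPKM at 4 h (2.26 to 5.88) and 1.64 FPKM at 12 h (0.474 to 2.81), about 0, 46 and 18 fragments. The level was thus highest at 4 h, and the bounds at 4 h and 12 h overlapped. The log2 folds were 2.34 for 4 h over 0 h and 1.40 for 12 h over 0 h, both called higher, and -0.94 for 12 h over 4 h, which was not called. On this scale a gene listed at 0 passes the rule as soon as it reaches 1 FPKM. The estimate of Il6 at 0 h was not marked as failed in the deposited file, and no ratio is given against a level of 0. In bulk RNA, a difference in the number of cells that make a transcript and a difference in the RNA per cell cannot be told apart, here and for every gene below.

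The promoter of Il6 is shown because it carries more matches to the searched motifs than that of any other of the 9 members with a promoter in the table searched, which holds none for Clcf1. The sequence is the 250 bases before the RefSeq start (chr5:30012864-30013113, plus strand, GRCm38.p6), and the capitals mark, from left to right, an AP-1 motif (TGACTCA or TGAGTCA) and the core of the cAMP response element (TGACG or CGTCA).
Il6 promoter: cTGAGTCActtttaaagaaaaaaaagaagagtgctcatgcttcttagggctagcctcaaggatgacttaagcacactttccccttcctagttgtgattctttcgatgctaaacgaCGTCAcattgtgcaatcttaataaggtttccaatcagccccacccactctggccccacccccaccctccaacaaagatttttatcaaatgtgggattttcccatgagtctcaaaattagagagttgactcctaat
These matches lie 249 to 243 and 135 to 131 bases before the start. Searched on both strands, the letters of these motifs occur in the 250 bases of 4.46% and 17.8% of 32851 RefSeq promoters. The matches describe the sequence and show nothing of which factor was bound in these cells.

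Lif, the cytokine known in the uterus for its part in implantation, stayed under 1 FPKM in all 3 libraries. Lif (chr11:4257568-4272514, plus strand) had 0.235 FPKM at 0 h (0.0240 to 0.529), 0.482 FPKM at 4 h (0.185 to 0.863) and 0.616 FPKM at 12 h (0.281 to 1.04). All 3 pairs of bounds overlapped, and the gene did not reach the level needed for a call. Its log2 folds were 0.26, 0.12 and 0.39 for 4 h over 0 h, 12 h over 4 h and 12 h over 0 h.

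The isoform to which the Lif fragments were assigned differed between the times. NM_008501, which encodes the full precursor of 203 codons, held 99.6% of the Lif level at 0 h, 99.8% at 4 h and 0.0277% at 12 h. NM_001039537, with 158 codons, held 0.391%, 0.190% and 99.97%. About 12, 22 and 26 fragments stand behind the whole gene, so these shares rest on few reads. The coding starts are printed to show how the isoforms differ, in capitals the 45 codons that NM_008501 has before the stretch of 477 bases shared by both (GENCODE M21 transcripts, GRCm38.p6).
Lif NM_008501: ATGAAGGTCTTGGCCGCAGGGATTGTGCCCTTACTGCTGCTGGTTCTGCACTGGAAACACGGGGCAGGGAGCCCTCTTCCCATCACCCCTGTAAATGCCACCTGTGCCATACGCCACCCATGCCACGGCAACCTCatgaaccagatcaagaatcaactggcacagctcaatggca
Lif NM_001039537: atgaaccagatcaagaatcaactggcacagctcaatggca
As background, the secretion signal of the LIF precursor lies at its start, in the codons that the shorter form lacks.

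Il11, a ligand with its own alpha receptor, was seen almost only at 4 h. Il11 (chr7:4772373-4782907, minus strand) had 0.183 FPKM at 0 h (0 to 0.652), 3.06 FPKM at 4 h (1.89 to 4.40) and 0.0517 FPKM at 12 h (0 to 0.416), and about 2, 29 and 0 fragments lay on it. The bounds at 4 h were clear of those at 0 h and 12 h, which overlapped each other. The log2 fold of 1.78 for 4 h over 0 h was called higher and that of -1.95 for 12 h over 4 h was called lower, while 12 h over 0 h gave -0.17. The isoform NM_001290423 held 99.85%, 99.98% and 99.74% of the level, and NM_008350 the rest. An AP-1 motif lies 98 to 92 bases before the start of NM_008350, and the window before the start of NM_001290423 held none of the 3 motifs searched, AP-1, the cAMP response element core and the STAT motif given with Socs3.

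Clcf1, which encodes the cardiotrophin-like cytokine, had the highest level of the 4 ligands in every library. Clcf1 (chr19:4214238-4223505, plus strand) had 1.24 FPKM at 0 h (0.419 to 2.43), 14.0 FPKM at 4 h (10.5 to 17.9) and 7.10 FPKM at 12 h (4.77 to 9.81). The 3 sets of bounds lay apart, with 4 h at the top and 0 h at the bottom. The log2 folds were 2.75 for 4 h over 0 h and 1.86 for 12 h over 0 h, both called higher, and -0.89 for 12 h over 4 h, short of the rule.

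The assignment of Clcf1 fragments to isoforms differed between the times as well. At 0 h and 4 h 99.4% and 99.95% of the level was assigned to NM_001310039 and at 12 h 99.98% to NM_019952, while NM_001310038 was listed at 0 at all times. GENCODE pairs all 3 accessions with 1 transcript of 225 codons, so the files here give no sequence that sets them apart. Taken from NM_001310039 alone, the fold for 12 h over 0 h turns to -1.15. Clcf1 also shares 9134 bases of its span with AC109138.7, an annotated protein-coding gene on the same strand, and fragments from the pair cannot be told apart here.

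Among the 4 receptor genes, the oncostatin M receptor chain stood out by its change and the shared chain by its level. Osmr (chr15:6813568-6874968, minus strand) had 0.323 FPKM at 0 h (0.1001 to 0.546), 7.98 FPKM at 4 h (6.39 to 9.57) and 2.86 FPKM at 12 h (2.15 to 3.57), about 23, 502 and 176 fragments. The bounds of the 3 libraries lay apart, in the order 4 h, 12 h and 0 h from high to low. The log2 folds were 2.76 for 4 h over 0 h and 1.54 for 12 h over 0 h, both called higher, and -1.22 for 12 h over 4 h, called lower. The call for 12 h over 4 h is lost with the libraries rescaled to the mean of their sums, at -0.89, and with short RNAs left out of that sum, at -0.99. The plain ratio of FPKM was 24.7 at 4 h over 0 h, the largest among the 9 members that were not listed at 0 at 0 h.

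Il6st, which encodes gp130, was at 18.9 FPKM at 0 h (17.3 to 20.5), 28.0 FPKM at 4 h (26.1 to 29.9) and 23.7 FPKM at 12 h (22.0 to 25.5). The gene lies on chr13:112464070-112506860, plus strand, and about 2141, 2822 and 2334 fragments stood behind its levels. These numbers use the length of a GENCODE transcript that ends at base 112510086, beyond that span, and may be too high. The bounds of Il6st did not overlap between any of the times, with 4 h on top, but no log2 fold reached the rule. The folds were 0.54 for 4 h over 0 h, -0.23 for 12 h over 4 h and 0.31 for 12 h over 0 h. With the libraries rescaled to the mean of their sums, the value for 12 h over 4 h turns to 0.15.

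Lifr, the LIF receptor, was the only member with its highest level before hCG. Lifr (chr15:7090610-7197489, plus strand) had 13.6 FPKM at 0 h (12.3 to 15.0), 8.99 FPKM at 4 h (7.96 to 10.1) and 9.40 FPKM at 12 h (8.43 to 10.5). The bounds at 0 h lay above those at 4 h and 12 h, which overlapped. The log2 folds of -0.55, 0.06 and -0.49 for 4 h over 0 h, 12 h over 4 h and 12 h over 0 h were all short of the rule. NM_013584, with 1092 codons, held 97.6%, 97.5% and 98.5% of the level, and the shorter NM_001113386, with 719 codons, the rest.

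Il6ra, the alpha receptor that IL-6 needs before it can engage gp130, was low throughout. Il6ra (chr3:89869324-89913196, minus strand) had 0.693 FPKM at 0 h (0.303 to 1.08), 1.06 FPKM at 4 h (0.574 to 1.55) and 0.987 FPKM at 12 h (0.510 to 1.46), about 29, 40 and 36 fragments. All bounds overlapped, and no fold passed the rule, with log2 folds of 0.28, -0.05 and 0.23 for 4 h over 0 h, 12 h over 4 h and 12 h over 0 h. The Il6ra level was far below that of Il6st in each library, with bounds that lay apart. An antisense gene, Gm42809, overlaps 281 bases at the start of Il6ra.

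Stat3 was called higher at 4 h, with wide bounds. Stat3 (chr11:100886806-100939594, minus strand) had 16.8 FPKM at 0 h (0 to 46.6), 43.9 FPKM at 4 h (22.3 to 65.7) and 25.2 FPKM at 12 h (19.8 to 30.7). The level was highest at 4 h, and the summed bounds of all 3 libraries overlapped. The log2 folds were 1.34 for 4 h over 0 h, -0.78 for 12 h over 4 h and 0.56 for 12 h over 0 h. The call at 4 h is lost if the bounds must lie apart as well. In GENCODE the last 72 bases of Stat3 (chr11:100885098-100885169) overlap the end of Stat5a on the opposite strand. These bases lie outside the RefSeq span of Stat3 given above, which starts at base 100886806. The sources used here do not say whether the libraries keep the strand. Stat5a, another signal transducer of the family, went the other way at 4 h, as given below.

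The Stat3 level is divided over 3 isoforms that share most of their coding sequence. NM_213659, with 770 codons, was at 7.33 FPKM at 0 h (0 to 22.1), 25.2 FPKM at 4 h (14.4 to 36.0) and 19.4 FPKM at 12 h (16.5 to 22.3). NM_011486, the truncated form of 722 codons known as STAT3 beta, was at 6.53 FPKM at 0 h (0 to 15.6), 18.7 FPKM at 4 h (7.86 to 29.6) and 0.0533 FPKM at 12 h (0 to 0.226). NM_213660, which lacks 1 serine codon, was at 2.92 FPKM at 0 h (0 to 8.89), 0.00553 FPKM at 4 h and 5.75 FPKM at 12 h (3.29 to 8.21). The truncated form thus held 38.9% and 42.6% of the Stat3 level at 0 h and 4 h and 0.212% at 12 h, with bounds that lie apart only between 4 h and 12 h. The stretches of coding sequence that set the isoforms apart are printed to show how small these differences are (GENCODE M21 transcripts, GRCm38.p6).
Stat3 NM_213659, coding bases 2071 to 2133: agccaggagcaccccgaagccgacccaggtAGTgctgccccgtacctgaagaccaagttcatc
Stat3 NM_213660, same place: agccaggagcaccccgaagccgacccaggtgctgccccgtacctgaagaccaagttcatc
Stat3 NM_213659, coding bases 2116 to 2225: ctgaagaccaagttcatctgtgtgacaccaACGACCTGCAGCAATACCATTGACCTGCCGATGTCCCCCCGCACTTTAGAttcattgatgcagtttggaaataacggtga
Stat3 NM_011486, same place: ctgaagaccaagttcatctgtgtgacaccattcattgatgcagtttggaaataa
The capitals mark the 3 bases missing from NM_213660 and the 50 bases missing from NM_011486. After its gap NM_011486 reads on in another frame and meets a stop codon. As background the beta protein is known to lack the C-terminal transactivation domain.

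**Figure D2:**
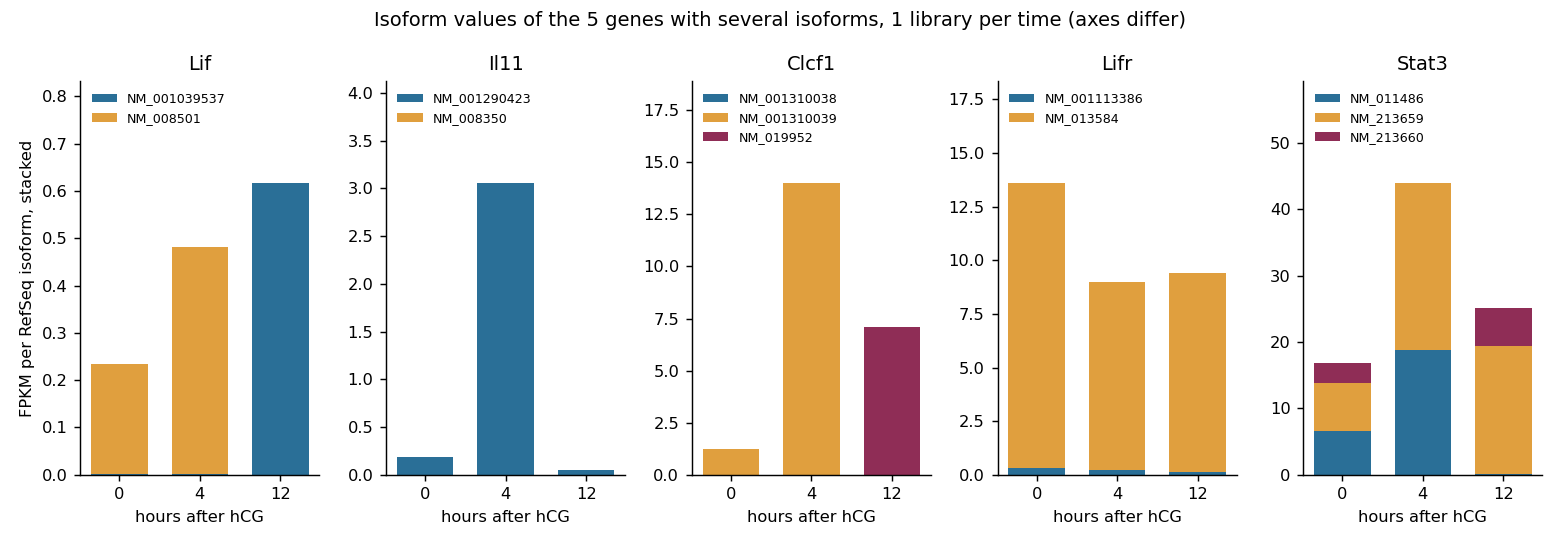
FPKM of each RefSeq isoform (y axis, stacked, own scale per panel) of the 5 genes with several isoforms at 0, 4 and 12 h after hCG (x axis), 1 library per time and no error bars. For Lif and Clcf1, nearly all of the level is assigned to another isoform at 12 h than at 0 h and 4 h. Lif rests on about 12, 22 and 26 fragments, and no sequence was available that sets the Clcf1 isoforms apart. How far the assignment itself sets these shares was not tested. For Stat3 the truncated NM_011486 is at 18.7 FPKM at 4 h and 0.0533 FPKM at 12 h.

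Socs3, the feedback inhibitor, is measured by 1 isoform and had narrow bounds. Socs3 (chr11:117966079-117970336, minus strand) had 5.98 FPKM at 0 h (4.57 to 7.38), 20.1 FPKM at 4 h (17.0 to 23.2) and 10.8 FPKM at 12 h (8.44 to 13.1), about 187, 562 and 294 fragments. The bounds of the 3 libraries lay apart, with 4 h on top and 0 h at the bottom. The log2 fold of 1.60 for 4 h over 0 h was called higher, and those of -0.84 for 12 h over 4 h and 0.75 for 12 h over 0 h were short of the rule.

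Socs3 was the only one of those 9 members with a STAT motif (TTCNNNGAA) in the window searched. The window is the 250 bases before the RefSeq start at base 117969366 (chr11:117969367-117969616, minus strand, GRCm38.p6), inside the annotated span of the gene, and the capitals mark the motif, 154 to 146 bases before that start.
Socs3 promoter: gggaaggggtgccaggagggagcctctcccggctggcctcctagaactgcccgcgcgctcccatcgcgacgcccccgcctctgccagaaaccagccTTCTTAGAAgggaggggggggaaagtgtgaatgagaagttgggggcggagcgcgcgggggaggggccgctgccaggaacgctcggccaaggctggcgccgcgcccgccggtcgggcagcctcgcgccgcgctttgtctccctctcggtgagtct
The motif occurs in 7.02% of the 32851 promoters. The table used holds 11 promoters for the 9 members, and at that share 1 match is not read as a trait of Socs3. This match describes the sequence and shows nothing of which factor was bound in these cells. Besides those of Il6, Il11 and Socs3, the windows of Lif and Il6ra held 1 match each. These were an AP-1 motif 228 to 222 bases and a cAMP response element core 236 to 232 bases before the start. The windows of Il6st, Lifr, Osmr and Stat3 held none. Those of Osmr (chr15:6874314-6874563) and Lifr (chr15:7129322-7129571 and chr15:7140292-7140541) also lie inside the annotated gene spans, as does the Il11 window with the AP-1 motif. Sequence outside these spans was not searched for Osmr and Lifr.

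Over the 10 genes, 6 were called higher at 4 h than at 0 h, namely Il6, Il11, Clcf1, Osmr, Stat3 and Socs3, and none was lower. Of the 13240 genes that reached 1 FPKM in either library, 10.2% were higher and 7.03% lower. The median log2 fold was 1.47 over the 10 genes and -0.01 over all genes tested, and the folds of the 10 ran between -0.55 for Lifr and 2.76 for Osmr. The median of the 10 includes Lif, which did not reach the level for a call. Because the 10 genes were chosen with earlier results of these data known, these counts and medians are a description and not a test. For Osmr, Clcf1, Il6, Il11, Socs3 and Stat3, in that order, 1.83%, 1.86%, 2.56%, 4.31%, 5.20% and 6.73% of genes had a larger fold. Of the 10 genes 9 reached the level for a call, 4 of them (Il6, Il11, Il6ra and Osmr) only through the 4 h library. The same 6 genes were called under each of the 3 other scalings tried. With a pseudocount of 5 FPKM, or with a minimum of 5 FPKM, the calls of Il6 and Il11 were lost.

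Markers of other cells of the ovary also differed between the libraries. The 8 neutrophil markers summed to 2.44, 25.8 and 4.66 FPKM at 0, 4 and 12 h and 3 of them were called higher at 4 h than at 0 h; S100a9 was at 0, 10.8 and 0.266 FPKM, Elane was listed at 0 throughout, and Mpo was at 0 at 4 h and 12 h. The 13 leukocyte and macrophage markers summed to 85.5, 142 and 138 FPKM, with 3 higher at 4 h than at 0 h, while the pan-leukocyte gene Ptprc stayed at 0.489, 0.489 and 0.521 FPKM. The 8 endothelial markers summed to 17.4, 41.5 and 15.9 FPKM, with 2 higher at 4 h than at 0 h and 4 lower at 12 h than at 4 h. The 8 theca and stroma markers summed to 362, 693 and 488 FPKM, with 1 higher at 4 h than at 0 h and a median log2 fold of 0.22; most of the difference in the sum was Mgp, at 70.9, 371 and 191 FPKM. The 7 surface epithelium markers summed to 461, 249 and 179 FPKM, a course set by Aldh1a1 at 412, 128 and 101 FPKM. Of these 7, 3 were higher and 1 was lower at 4 h than at 0 h, 6 had a positive fold and the median was 0.91; the keratin gene Krt18 was at 7.70, 36.5 and 18.0 FPKM. The 9 oocyte markers summed to 197, 152 and 283 FPKM, with none called at 4 h over 0 h and 1 higher at 12 h than at 4 h. The part of any of these cells in the levels of Il6, Il11, Clcf1, Osmr, Stat3 and Socs3 was not tested.

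At 12 h against 4 h the calls ran the other way. Il11 and Osmr were lower at 12 h and no member was higher, where 7.88% of 13242 genes tested were lower and 4.83% higher. The median log2 fold was -0.81 over the 10 genes and 0.01 over all genes tested, and 8 of the 10 folds were negative on the deposited scale. Of these 8, Il6ra and Il6st turn positive with the libraries rescaled to the mean of their sums, at 0.14 and 0.15. With 9 genes at the level for a call, a count of 2 is not read as a trait of the family. Il11 and Il6ra reached that level only through the 4 h library. Il6, Clcf1, Stat3 and Socs3, at -0.94, -0.89, -0.78 and -0.84, were between 1.5-fold and 2-fold.

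At 12 h against 0 h, Il6, Clcf1 and Osmr were higher and none was lower, where 3.16% of 13026 genes tested were higher and 2.55% lower. The median log2 fold was 0.47 over the 10 genes, 7 of which reached the level for a call, and -0.02 over all genes tested. Il6 and Osmr reached that level only through the 12 h library, in which they were higher. Socs3, at 0.75, had bounds clear of those at 0 h without reaching the rule. This comparison shares its 0 h library with the first one and its 12 h library with the second.

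**Figure D3:**
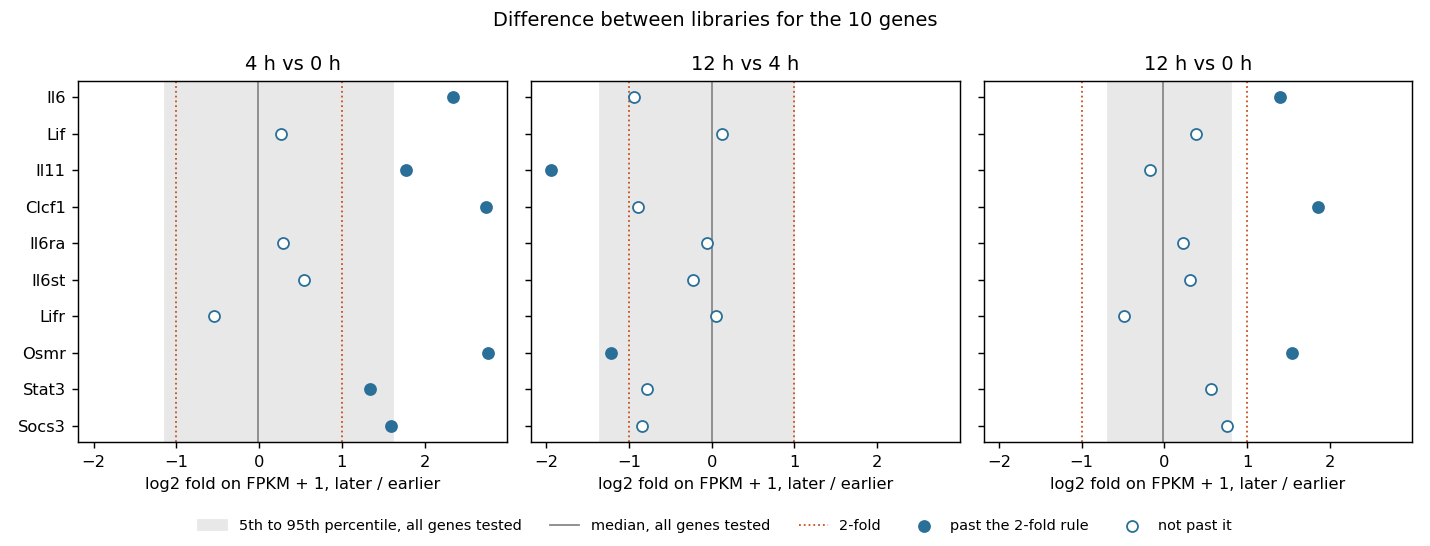
Log2 fold of FPKM + 1 (x axis) of the 10 genes (rows) for 4 h over 0 h, 12 h over 4 h and 12 h over 0 h; filled points passed the 2-fold rule and open points did not, and grey bands hold the middle of all genes tested, from the 5th to the 95th percentile. At 4 h over 0 h, 4 of the filled points, Il6, Il11, Clcf1 and Osmr, lie beyond the band, which ends at 1.62.

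The order of the levels also differed between the libraries. At 0 h Il6st, Stat3 and Lifr stood at the top; the bounds of Il6st lay above those of Lifr, and the wide bounds of Stat3, which reach down to 0, overlapped those of every member. Socs3 came next with bounds clear of those of Lifr, and Clcf1 was clear of Socs3. Below it Il6ra, Osmr, Lif, Il11 and Il6 overlapped from neighbour to neighbour. At 4 h Stat3 and Il6st, Socs3 and Clcf1, Lifr and Osmr, Il6 and Il11, and Il6ra and Lif formed overlapping pairs from high to low. Neighbours from pair to pair lay apart, although the wide bounds of Stat3 reached those of Socs3. At 12 h Stat3 and Il6st again overlapped at the top, Socs3, Lifr and Clcf1 overlapped from neighbour to neighbour below them, and Osmr came after a gap in the bounds. Il6, Il6ra, Lif and Il11 followed, and from Osmr down each overlapped its neighbour; Il11 was clear of Il6 and Il6ra, and Il6ra, Lif and Il11 were clear of Osmr.

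The other ligands and receptors of the family that were measured passed the rule in no comparison. Only 2 of 8 ligand genes and 3 of 7 receptor and sheddase genes reached the level for a call. The others could not be called, and the medians given for these lists include them. Among 8 further ligand genes, oncostatin M (Osm), a ligand of the chain encoded by Osmr, was at 0, 0.0967 and 0.0511 FPKM at 0, 4 and 12 h. This ligand of the member with the largest fold was thus under 1 FPKM in all libraries. The ciliary neurotrophic factor gene Cntf had the highest level of that list, 5.18, 4.09 and 7.05 FPKM, followed by cardiotrophin 1 (Ctf1) at 2.81, 2.50 and 4.74 FPKM. Cardiotrophin 2 (Ctf2) was at 0, 0.481 and 0.125 FPKM and Ebi3, which pairs with the IL-27 subunit, at 0, 0.522 and 0.972 FPKM. The median log2 fold of the list was 0.05 for 4 h over 0 h, 0.11 for 12 h over 4 h and 0.20 for 12 h over 0 h.

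Among 7 further receptor and sheddase genes, Il11ra1, the alpha receptor for IL-11, was at 21.9, 13.0 and 15.1 FPKM at 0, 4 and 12 h. The receptor for Il11 was therefore measured well above its ligand, which had its one clear level at 4 h. The remaining receptor genes were low in all libraries. Cntfr, the alpha receptor gene for the product of Clcf1, was at 0.117, 0 and 0.193 FPKM, Il27ra at 0.430, 0.715 and 0.386 FPKM and Il31ra at 0.195, 0.628 and 0.420 FPKM. The sheddases Adam10 and Adam17, which can cut receptor chains from the cell surface, stood at 63.6, 59.9 and 62.6 FPKM and at 43.5, 43.0 and 43.1 FPKM. The list's medians were -0.02, 0.00 and -0.01 for 4 h over 0 h, 12 h over 4 h and 12 h over 0 h.

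Of 10 genes for Janus kinases and other STAT proteins, 1 was called, lower at 4 h where Stat3 was higher. Stat5a had 21.9 FPKM at 0 h, 9.29 FPKM at 4 h and 20.7 FPKM at 12 h, lower at 4 h than at 0 h (-1.15) and higher at 12 h than at 4 h (1.08). Its close relative Stat5b, at 20.1, 13.2 and 19.8 FPKM, was short of the rule. Among the kinases, Jak1 was the most abundant with 234, 123 and 143 FPKM (-0.92 for 4 h over 0 h), and Jak2 had 9.20, 17.9 and 11.9 FPKM (0.89), neither past the rule. Jak3 and Stat4, typical of lymphoid cells, were at 1.40, 1.81 and 2.15 FPKM and at 0.242, 0.135 and 0.770 FPKM. The list's median log2 fold was -0.41 for 4 h over 0 h, 0.41 for 12 h over 4 h and 0.09 for 12 h over 0 h.

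Besides Socs3, 1 of 16 further inhibitor genes was called at 4 h. Cish, a SOCS-family gene known to be switched on by STAT5, had 6.13 FPKM at 0 h, 35.4 FPKM at 4 h and 5.41 FPKM at 12 h, higher at 4 h than at 0 h (2.35) and lower at 12 h than at 4 h (-2.51). Socs2, the most abundant, had 379, 308 and 161 FPKM and was lower at 12 h than at 0 h (-1.23). The SOCS-family genes were thus not alike in their course. Socs1 was at 14.1, 8.02 and 7.42 FPKM (-0.74 for 4 h over 0 h) and Socs7 at 21.0, 12.4 and 15.8 FPKM (-0.72). The STAT3 inhibitor gene Pias3 was at 21.7, 10.7 and 15.0 FPKM (-0.95). The phosphatase genes Ptpn1 and Ptpn2, at 15.8, 23.7 and 16.7 FPKM and at 40.5, 47.4 and 34.2 FPKM, were short of the rule as well. The median log2 fold of the list was 0.11 for 4 h over 0 h, -0.18 for 12 h over 4 h and -0.16 for 12 h over 0 h.

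Genes known from other cells to respond to STAT3 held most of the calls among the lists. Of 25 such genes, 15 were higher and 1 was lower at 4 h than at 0 h, with a median log2 fold of 1.55. At 12 h over 4 h none was higher and 8 were lower, with a median of -0.60, and 9 were higher and 1 lower at 12 h than at 0 h, with a median of 0.69. Many of them also respond to other signals, and the list was drawn up with earlier results of these data known. The matrix gene Tnfaip6 had 1.40, 1251 and 7.01 FPKM at 0, 4 and 12 h, with log2 folds of 9.03 and -7.29 for 4 h over 0 h and 12 h over 4 h. The metalloproteinase inhibitor Timp1 had 34.7, 521 and 192 FPKM (3.87 and -1.44) and the survival gene Ier3 had 20.3, 297 and 102 FPKM (3.81 and -1.53).

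Other members of that list were closer in size to Socs3. The kinase gene Pim1 had 4.88, 24.0 and 12.7 FPKM (2.09 for 4 h over 0 h), the transcription factor gene Cebpd 2.67, 9.81 and 2.95 FPKM (1.56) and the adhesion molecule gene Icam1 0.483, 5.84 and 2.54 FPKM (2.21). The AP-1 gene Junb, at 8.10, 95.5 and 21.0 FPKM, and the RNA-decay factor gene Zfp36, at 8.21, 69.6 and 16.7 FPKM, are common early-response genes, with log2 folds of 3.41 and 2.94 at 4 h over 0 h. The acute-phase gene Saa3 differed from these in that its highest level was at 12 h, 9.84, 30.8 and 44.1 FPKM. The survival gene Bcl2l1 was the 1 lower gene at 4 h, with 42.7, 17.3 and 28.3 FPKM (-1.26, deposited bounds overlapping), and the cyclin gene Ccnd1, at 8.73, 5.92 and 3.72 FPKM, was the 1 lower gene at 12 h over 0 h (-1.04). Mcl1 and Hif1a, at 108 and 139 FPKM at 4 h against 61.6 and 98.2 FPKM at 0 h, were short of the rule, and the liver gene Fgg was listed at 0 at all times.

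Over all 66 other genes of the pathway, 16 were higher and 2 lower at 4 h than at 0 h, with a median of 0.15. Of all genes tested, 10.2% were higher and 7.03% lower. The STAT3-responsive list, drawn up with earlier results known, held 15 of the 16 higher genes and 1 of the 2 lower ones. The other higher gene was Cish and the other lower one Stat5a. With the libraries rescaled to the mean of their sums the counts of 16 and 2 became 15 and 7. At 12 h over 4 h, 1 was higher and 9 lower, with a median of -0.09, and 4 and 8 after that rescaling. Of all genes tested, 4.83% were higher and 7.88% lower there. At 12 h over 0 h, 9 were higher and 2 lower, with a median of 0.10, and 12 and 1 after that rescaling. The shares of all genes tested were 3.16% and 2.55%.

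**Figure D4:**
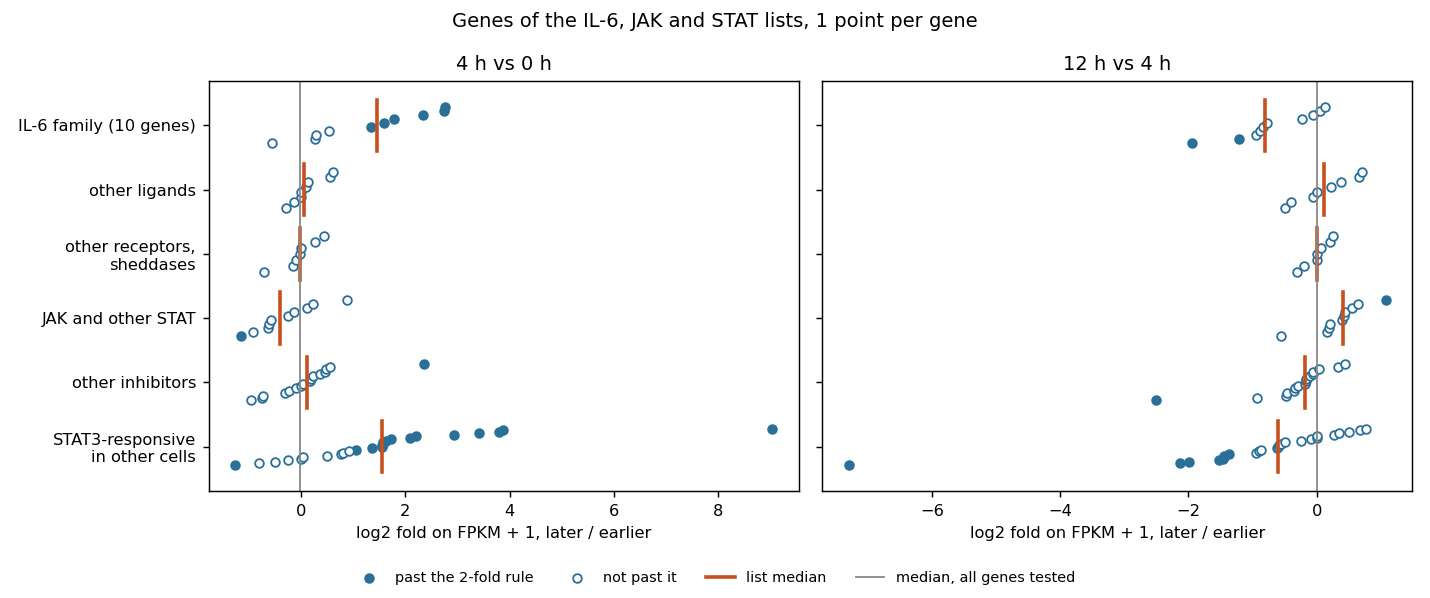
Log2 fold of FPKM + 1 (x axis) for 4 h over 0 h and 12 h over 4 h, 1 point per gene, in rows for the 10 genes and 5 lists of other pathway genes; filled points passed the 2-fold rule, orange bars are list medians and the grey line is the median of all genes tested. The medians of the 10 genes and of the STAT3-responsive list, 1.47 and 1.55, lie right of those of the other 4 lists at 4 h over 0 h. The 10 genes and all lists were chosen with earlier results of these data known. Many genes of the STAT3-responsive list also respond to other signals, and the part of STAT3 in their levels was not tested. List medians include genes under the level for a call, which the grey line leaves out.

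Genes with the most similar time course were sought for the 4 called members that reached 5 FPKM, by the Euclidean distance of their log2 folds for 4 h over 0 h and 12 h over 4 h among 10012 genes. With only 3 libraries this is a description of shape. For Osmr the nearest were Creb3l1, Nr4a1 and Parm1 at distances of 0.07, 0.09 and 0.12, and 21 genes lay within 0.5. For Clcf1 they were Adamts4, Peg10 and Creb3l1 at 0.14, 0.23 and 0.28, with 16 genes within 0.5. The shapes of Socs3 and Stat3 were more common, with 245 and 410 genes within that distance. Nearest to Socs3 were Zswim4, Il17ra and the steroidogenic gene Cyp11a1 at 0.02, 0.03 and 0.04, and nearest to Stat3 were Tgfbr2, Ank2 and Nab1, at 0.0044, 0.05 and 0.06.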

How the data were processed

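Messenger RNA libraries of mouse granulosa cells were analysed, 1 at each of 0, 4 and 12 h after hCG. The deposited values are FPKM of RefSeq isoforms with a lower and an upper bound and a standard deviation, which is another deposited column; the level of the bounds is not stated, and the standard deviation is the distance to the upper bound divided by 2 in 100% of entries. The submitters' processing notes name CASAVA 1.8, TopHat2 2.1.1, Cufflinks 2.2.1 and mm10, with no role or order. Strandedness, read length and multi-read handling are not given in the sources used here.

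Isoforms were matched to symbols through RefSeq genes of GRCm38.p6 (34169 of 34535) and GENCODE M21 (193), and 173 stayed unmatched and were left out. Of 12 estimates marked as failed, none belonged to the 10 genes. FPKM and bounds were summed per gene. Log2 folds used a pseudocount of 1 FPKM. Calls needed a 2-fold change, a log2 fold of 1 in either direction, and 1 FPKM in 1 of the 2 libraries, applied to all genes. Depth was read from the steps of low FPKM values: 70.9%, 70.0% and 71.8% lay within 0.1 of a whole fragment, where chance gives 20%. Fragment numbers are approximate and cover counting only. They use GENCODE transcript lengths, which can differ from those of the RefSeq isoforms.

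The 10 genes and all lists were chosen with earlier results of these data known. Named besides the 10 are list genes past the rule, at least the 4 with the largest fold per list and comparison, the most abundant uncalled gene of each list, and the 3 genes nearest in time course to each called gene of at least 5 FPKM, leaving out predicted and small RNA symbols; the text names those that describe each list, and some list genes are not reported here. The alternatives tried were a pseudocount of 0.1 or 5 FPKM, a filter of 5 FPKM or none, 3 other scalings, the isoform with the highest mean in place of the sum, thresholds of 1.5-fold and 4-fold, bounds that lie apart, bounds combined as the root of summed squares, and isoforms under 0.1 FPKM left out. Promoters are RefSeq's, coding sequences GENCODE M21's. Python 3.11.15, pandas 2.3.3 and numpy 2.4.6 were used. The calls were tested on simulated data with counting noise only, and changes of 4-fold or more in genes of at least 5 FPKM. Smaller changes, changes in lower genes and the spread between mice were not covered.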

Additional observations from a re-analysis of the deposited data

How the results depend on the processing

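No paired analysis was possible because each time has 1 library. Of the 10 genes, 6 were called at 4 h over 0 h, and 3 were with a 4-fold threshold. At 12 h over 4 h the count was 2; it was 0 with a pseudocount of 5 FPKM or a 4-fold threshold, 1 with a filter of 5 FPKM, with libraries rescaled to the mean of their sums or with short RNAs left out of that sum, and 6 with a 1.5-fold threshold. At 12 h over 0 h the count was 3; it was 0 with a pseudocount of 5 FPKM or a 4-fold threshold and 1 with a filter of 5 FPKM. Of the 66 other pathway genes, 18, 10 and 11 were called in the 3 comparisons, 30, 21 and 18 with a 1.5-fold threshold and 8, 3 and 3 with a 4-fold threshold, and 4 at 12 h over 0 h with a pseudocount of 5 FPKM. Of all genes tested, 17.3%, 12.7% and 5.7% were called in the 3 comparisons. These shares were 37.8%, 32.2% and 15.5% with a 1.5-fold threshold and 4.48%, 3% and 1.32% with a 4-fold threshold. With a pseudocount of 5 FPKM they were 8.5%, 5.84% and 2.38%, and with a filter of 5 FPKM 17.3%, 12.7% and 5.16%. At 12 h over 4 h they were 17.8% with libraries rescaled to the mean of their sums and 15.5% with short RNAs left out. Clcf1 at 12 h over 0 h reversed to -1.15 where NM_001310039 stood for the sum, which by construction leaves out the isoform that held its 12 h level; Stat3 in that comparison became called with NM_213659 alone, at 1.29. Over all genes, a pseudocount of 5 FPKM moved the share of calls that were higher to 69.4% at 4 h over 0 h and to 20.1% at 12 h over 4 h. The causes of the other moves were not tested. Of 330 recomputed values for single genes of the 10, 274 stayed on their side of the rule and near their value, 55 did not, and 1 reversed. Low fragment numbers limit Il6, Lif, Il11 and Il6ra, and the division over isoforms limits Stat3.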

Other observations

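A further list of 19 receptor genes for other cytokines, chosen after values had been seen, also held genes past the 2-fold rule. At 4 h over 0 h, 5 were higher and none was lower, with a median log2 fold of 0.35. The leptin receptor gene Lepr, a relative of gp130 in structure, was at 0.772, 38.9 and 1.98 FPKM at 0, 4 and 12 h, with log2 folds of 4.49 for 4 h over 0 h and -3.74 for 12 h over 4 h. The erythropoietin receptor gene Epor, at 0.740, 3.49 and 0.736 FPKM, had the same shape with folds of 1.37 and -1.37. The shared beta chain gene Csf2rb was at 0.0495, 2.62 and 0.961 FPKM, Il13ra1 at 1.84, 8.22 and 4.27 FPKM and Il17ra at 24.9, 76.8 and 41.4 FPKM, all higher at 4 h than at 0 h. At 12 h over 4 h Lepr and Epor were lower and none was higher, and at 12 h over 0 h none of the 19 was called. The interferon receptor genes Ifnar1, at 20.3, 20.1 and 20.4 FPKM, and Ifngr2, at 39.7, 39.97 and 39.0 FPKM, were nearly level.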
